A study of Caenorhabditis elegans with 2 samples.

Results

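MED-1, END-1, END-3, ELT-7, ELT-2 and the epidermal factors ELT-1, ELT-3, EGL-18 and ELT-6 belong to the GATA family of zinc finger transcription factors of Caenorhabditis elegans, as does MED-2, a near copy of MED-1. Their 10 genes, of 19985 protein-coding genes in Ensembl release 115, were taken by name. The endoderm cascade is formed by 6 genes, the pair med-1 and med-2, the pair end-3 and end-1, and the pair elt-7 and elt-2. The other 4 genes, elt-1, elt-3, egl-18 and elt-6, act in the epidermis. The genes were described by the sites where MED-1 itself was found in chromatin immunoprecipitation followed by sequencing (ChIP-seq). The question was whether tagged MED-1 was found near the genes that act beside and after it, and near GATA factor genes of another tissue.

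The 2 samples are biological replicates of 1 group. They are mid-stage embryos of hermaphrodite stock, taken as whole organisms, of the strain OP391. The strain has the mutation unc-119(ed3) on chromosome III and the transgene wgIs391, and both replicates carry them. The transgene holds a rescuing unc-119(+) gene and med-1 joined at its C-terminal end to the TY1, EGFP and FLAG tags. Sonicated chromatin was pulled down with an anti-GFP antibody, which binds the tag. The labels name a control experiment that was not analysed here, and there is no group without the tag. The strain is a single transgenic line, and the sources used here do not give the flanking sequence, copy number or insertion site of the transgene. In whole embryos, a site bound in few cells and a site weakly bound in many cannot be told apart.

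In the textbook account, the maternal factor SKN-1 turns on the med genes in the founder cell of the mesendoderm in the early embryo. MED-1 and MED-2 then activate end-1 and end-3, whose products commit the daughter cell to endoderm and turn on elt-7 and elt-2, which maintain the intestine. In the epidermis, ELT-1 specifies the fate, ELT-3 acts in the differentiating skin cells, and EGL-18 and ELT-6 act in the seam cells. MED proteins are known to recognise AAGTATAC and GAGTATAC in place of the usual GATA letters.

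The upstream sequences of end-3 and end-1 are shown first because they hold MED sites, here the letters AAGTATAC or GAGTATAC on either strand, and the other 8 genes held none in the 5 kb upstream. Over that length 2 of the 10 members thus held a MED site, beside 18.3% of all genes. Sequences are the plus strand of the WBcel235 assembly (ce11) from NCBI RefSeq, which is also the strand of all 10 genes. Capitals mark MED sites. The end-3 sequence is V:14014445-14014694, the 250 bases before the gene, and the end-1 sequence is V:13984918-13985127, the 210 bases before the gene.

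end-3 upstream: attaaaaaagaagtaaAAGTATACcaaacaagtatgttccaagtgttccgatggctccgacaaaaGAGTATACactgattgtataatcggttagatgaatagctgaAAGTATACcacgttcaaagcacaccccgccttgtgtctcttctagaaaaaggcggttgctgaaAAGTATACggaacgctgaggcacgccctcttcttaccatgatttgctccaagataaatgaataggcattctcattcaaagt

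end-1 upstream: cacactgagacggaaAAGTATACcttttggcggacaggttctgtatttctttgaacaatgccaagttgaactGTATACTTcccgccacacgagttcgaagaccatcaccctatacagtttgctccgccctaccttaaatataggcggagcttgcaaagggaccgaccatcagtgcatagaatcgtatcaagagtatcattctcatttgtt

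In end-3 the 4 sites began 234, 185, 144 and 81 bp before the gene, and in end-1 the 2 sites began 195 and 138 bp before it, the nearer one on the minus strand. Of 19982 protein-coding genes with 1 kb of upstream sequence, 790 (3.95%) held at least 1 MED site, 117 (0.585%) held at least 2 and 7 (0.0350%) held at least 4. The core GTATAC, which reads the same on both strands and lies inside the MED site, was found in the 1 kb upstream of no member beyond these 6 sites, against 11.6% of all genes with at least 1. Where sites on opposite strands overlap, both were counted.

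The deposited lists give each peak a signal set by the authors, on a scale that is not stated, so signals were compared within a list. The optimal set, which the authors kept by agreement of peak ranks between replicates (irreproducible discovery rate, IDR), held 460 peaks with signals from 38.9 to 778. It matched the 460 strongest peaks of the pooled list of both replicates rank for rank. The pooled list held 30000 peaks, replicate 1 held 2401 and replicate 2 held 30000, and these 3 lists include background by the authors' own naming. Replicate 1 therefore lists far fewer weak peaks than replicate 2, which limits what a missing peak in replicate 1 shows. The lists hold no read counts, so the depth behind a peak is unknown. A peak was assigned to a gene when its summit lay between 5 kb upstream of the gene start and the gene end, and 1 peak may fall in the windows of several genes.

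Tagged MED-1 had an optimal peak in the windows of 2 of the 10 genes, med-1 in the endoderm group and egl-18 in the epidermal group, and of none of the other 8. That is 20% of the members, with an exact 95% binomial interval of 2.52% to 55.6%, beside 4.44% of all protein-coding genes. With so few genes the interval is wide and includes the background. It treats the genes as independent draws, while they were taken by name and the windows of egl-18 and elt-6 overlap. The share was therefore not tested against the background. The same 2 genes had a pooled peak among the 1000 strongest (8.78% of all genes had one), a peak in replicate 1 (18.1% of all genes) and a pooled peak that overlapped peaks of both replicates (11.4% of all genes). In the long lists nearly every gene had a peak. A pooled peak was present at 8 of 10 members against 86.6% of all genes, and a replicate 2 peak at 10 of 10 against 87.3%.

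**Figure D1:**
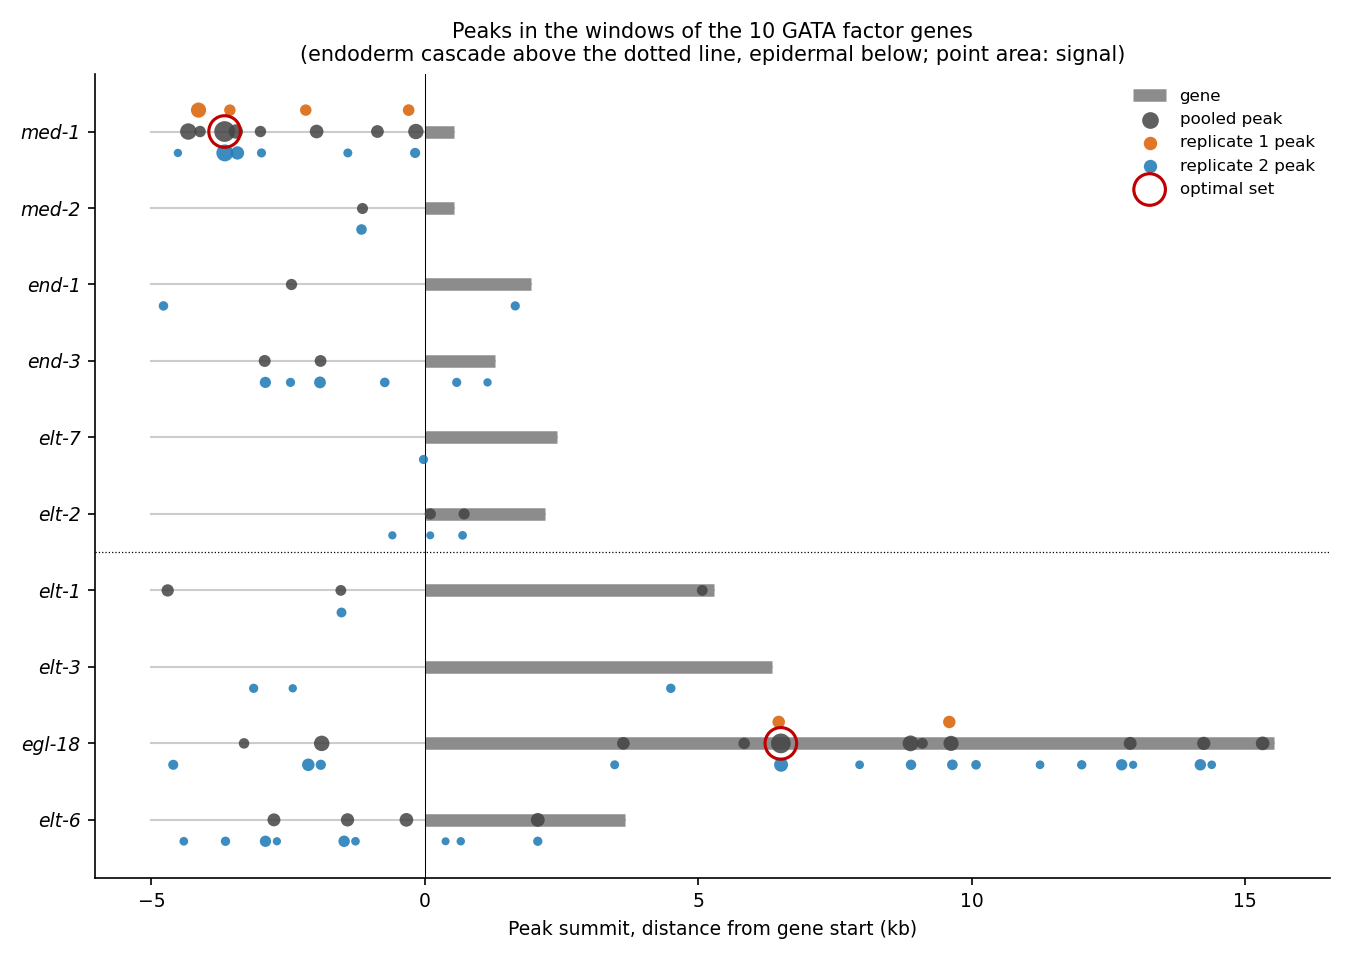
Peaks in the windows of the 10 genes. The horizontal axis gives the distance of the peak summit from the gene start in kb, thick grey bars are the genes, and points are peaks of the pooled list (dark), replicate 1 (orange) and replicate 2 (blue) with area in proportion to signal. Red circles mark the 2 optimal peaks, 3660 bp upstream of med-1 and 6510 bp into egl-18, and orange points appear at these 2 genes alone.

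The endoderm and epidermal groups were not told apart by these counts. An optimal peak was found at 1 of 6 endoderm genes (16.7%, exact 95% interval 0.421% to 64.1%) and at 1 of 4 epidermal genes (25%, 0.631% to 80.6%). Over the joined windows, the endoderm genes held 14 pooled peaks in 38.9 kb (0.360 per kb) and the epidermal genes 15 in 45.9 kb (0.326 per kb), against 0.305 per kb over the windows of all protein-coding genes. The intervals overlap almost wholly, and the genes are not replicates, so no test was made. In the pooled, replicate 1 and optimal lists a single gene carried much of each group. Without med-1 the other 5 endoderm genes had 6 pooled peaks in 33.4 kb (0.180 per kb), none in replicate 1 and none in the optimal set. Without egl-18 the other 3 epidermal genes had 7 pooled peaks (0.231 per kb), again with none in replicate 1 or in the optimal set. Through the window of elt-6, this set still counts 3 pooled and 6 replicate 2 peaks that lie inside egl-18. In replicate 2 the remaining genes held 0.3895 peaks per kb without med-1 and 0.429 without egl-18. Both densities lay above the 0.305 per kb of that list over the windows of all protein-coding genes. Gene by gene, end-3 (0.9545), elt-2 (0.417) and elt-6 (1.04) lay above that value. The genes med-2 (0.181), end-1 (0.288), elt-7 (0.135), elt-1 (0.0972) and elt-3 (0.2645) lay under it.

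The order of the strongest pooled signal among the members was med-1 with 45.0, egl-18 with 40.9, elt-6 with 20.02, elt-1 with 15.9, end-3 with 15.1, end-1 with 13.3, elt-2 with 13.2 and med-2 with 12.85. The genes elt-7 and elt-3 had no pooled peak. The median strongest signal over all genes with a pooled peak was 18.3, so 5 of the 8 members lay under it and 3 above it. In replicate 2 the order was med-1 with 30.1, egl-18 with 20.4, end-3 with 14.7, elt-6 with 13.8, med-2 with 11.8, elt-1 with 10.3, end-1 with 9.52, elt-3 with 9.29, elt-7 with 8.80 and elt-2 with 7.98. In replicate 1 med-1 reached 24.2 and egl-18 16.5, and the other 8 had no peak. Both lists thus put med-1 and egl-18 ahead of the rest, and the order of the other 8 changed between the pooled list and replicate 2.

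**Figure D2:**
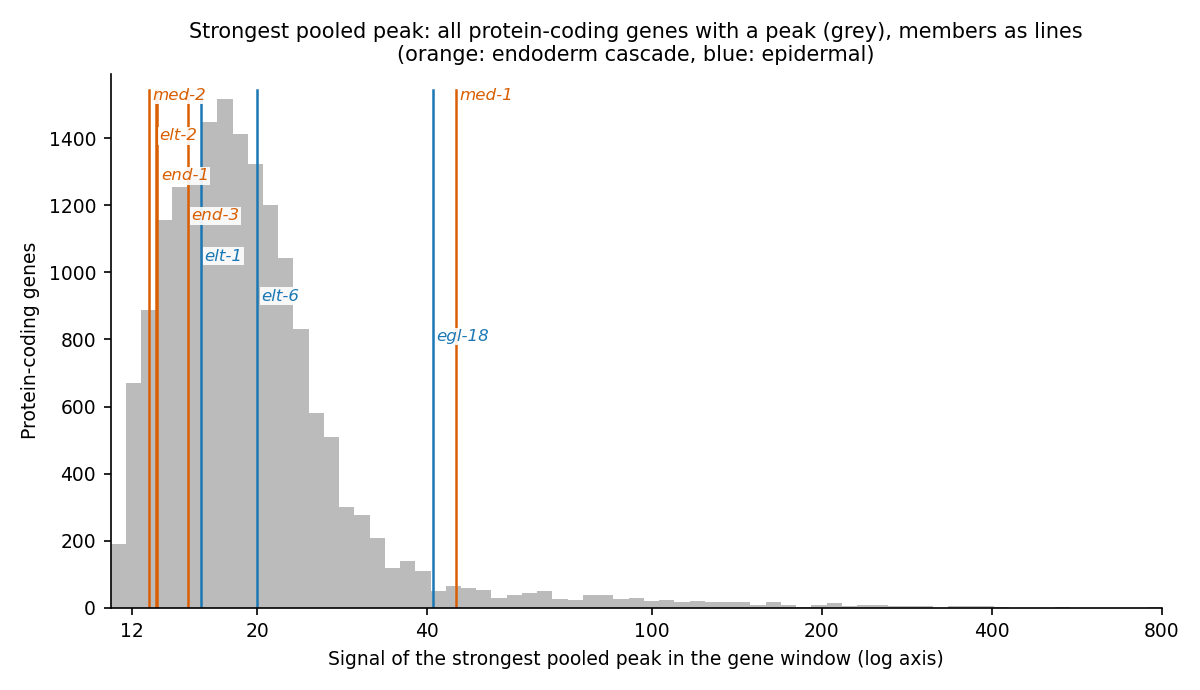
Signal of the strongest pooled peak in the window of each protein-coding gene. The horizontal log axis gives the authors' signal, the grey bars count genes, and vertical lines mark the 8 members with a pooled peak (orange for the endoderm cascade, blue for the epidermal genes). The lines of med-1 at 45.0 and egl-18 at 40.9 stand in the right tail, and the other 6 lie between 12.85 and 20.02, within the bulk of all genes.

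The gene med-1, which encodes the tagged factor, lies on X from 12430609 to 12431133 (WBGene00003180). Its optimal peak spanned 12426787 to 12427110 with the summit at 12426949, which is 3660 bp upstream and 319 bp outside the neighbouring gene T24D3.2. The nearest transcription start was that of T24D3.2, at 1006 bp. The pooled signal of 45.0 ranked 374 of the 460 optimal peaks, and 3.63% of all genes had a strongest peak at least as high. The peak of replicate 1 at this place had a signal of 13.8 and ranked 1952 of 2401, and that of replicate 2 had 30.1 and ranked 304 of 30000. A peak was thus present in both replicates, low in the list of replicate 1 and high in that of replicate 2.

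The window of med-1 held 8 pooled peaks, all upstream of the gene, with 4 peaks in replicate 1 and 6 in replicate 2. Per kb of window that is 1.45 pooled peaks, a density reached by 0.0651% of all protein-coding genes. The 4 peaks of replicate 1 had signals of 24.2, 13.8, 13.8 and 14.3, with summits 4137, 3564, 2176 and 295 bp upstream. The strongest of them overlapped pooled peaks with summits 4109 and 4324 bp upstream, both inside T24D3.2. The former, 28 bp from it, had a pooled signal of 13.8 (rank 19329) and overlapped no replicate 2 peak. The latter, 187 bp from it, had a pooled signal of 28.3 and a replicate 2 signal of 7.28. Nearest to the gene was a pooled peak 163 bp upstream with a signal of 24.9 (rank 1897), matched at 14.3 in replicate 1 and 10.9 in replicate 2. Of the 8 pooled peaks, 4 overlapped peaks of both replicates, and 2 of these 4 shared the same replicate peaks. At the pooled peak 4324 bp upstream, the matched peaks of the replicates did not overlap each other. Their summits lay 187 bp (replicate 1) and 190 bp (replicate 2) from the pooled one, on opposite sides.

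The peaks at med-1 were part of a wider stretch. Within 20 kb of the gene on either side there were 40 pooled peaks, against a median of 12 and a 95th percentile of 19 over all protein-coding genes, and no other gene reached 40. Replicate 1 had 15 peaks there against a median of 1, a number reached by 13 genes, which were med-1 and 12 genes of the mitochondrial genome. Replicate 2 had 39 against a median of 12, a number that egl-27 alone also reached. The pooled peaks had signals from 11.8 to 65.1 with a median of 20.4, and 3 of them were optimal peaks. The 15 peaks of replicate 1 followed each other with no gap over 10 kb from position -16583 to position 15758 bp relative to the gene start, a span of 32.3 kb, and the next peaks lay 15697 bp before and 11869 bp after it. The tagged transgene carries a copy of med-1, so DNA of the transgene and of the native locus cannot be told apart here. The rescuing gene unc-119, which the transgene also carries, had 10 pooled peaks, 1 of replicate 1 and 12 of replicate 2 within 20 kb and no optimal peak.

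**Figure D3:**
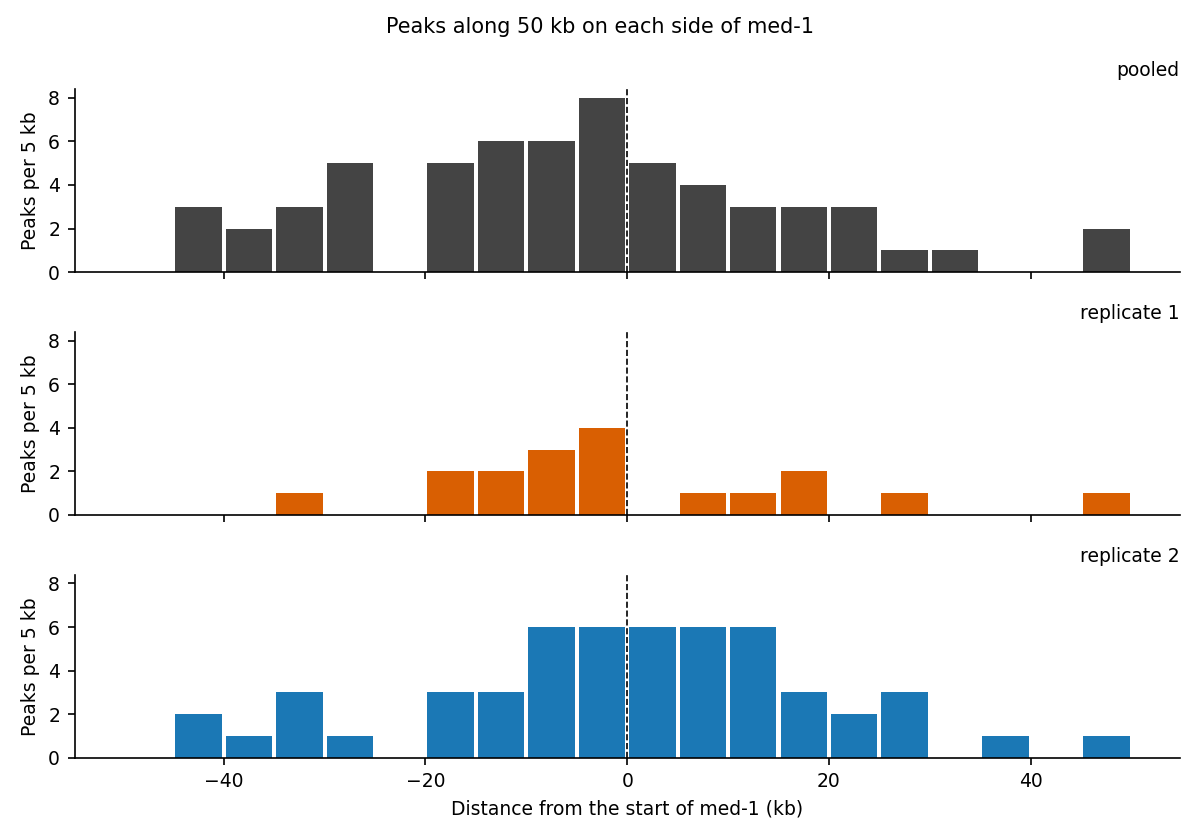
Peaks in bins of 5 kb over 50 kb on each side of med-1. The horizontal axis gives the distance from the gene start in kb, the dashed line marks the gene start, and bars count peaks of the pooled list, replicate 1 and replicate 2. The pooled count is highest, at 8, in the bin just upstream of med-1 and is 3 or fewer in every bin from 10 kb downstream onward.

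The gene med-2 encodes a protein that is nearly the same as MED-1 and acts with it. It lies on III from 6884503 to 6885027 (WBGene00003181), and its coding sequence matched that of med-1 at 509 of 522 bases (97.5%). The match extended upstream, with 94% of the 250 bases just before the genes identical. These stretches are shown because med-1 had a peak there and med-2 had none. They are X:12430359-12430608 for med-1 and III:6884253-6884502 for med-2, and capitals mark the 15 bases that differ.

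med-1 upstream: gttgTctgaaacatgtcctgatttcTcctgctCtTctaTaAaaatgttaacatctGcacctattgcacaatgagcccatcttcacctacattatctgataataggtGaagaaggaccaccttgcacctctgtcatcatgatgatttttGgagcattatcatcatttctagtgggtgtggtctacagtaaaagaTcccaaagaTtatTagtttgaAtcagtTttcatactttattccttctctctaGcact

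med-2 upstream: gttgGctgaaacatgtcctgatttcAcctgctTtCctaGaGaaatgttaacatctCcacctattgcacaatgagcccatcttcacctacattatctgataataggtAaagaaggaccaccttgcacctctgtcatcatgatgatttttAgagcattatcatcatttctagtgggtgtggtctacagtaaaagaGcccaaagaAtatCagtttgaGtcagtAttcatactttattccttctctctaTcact

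At med-2 the only pooled peak had its summit 1155 bp upstream, inside the gene K04C2.7, with a signal of 12.85 (rank 23282), a value reached by the strongest peak of 80.2% of all genes. Replicate 2 had a peak at the same place with a signal of 11.8 (rank 6366), and replicate 1 had none in the window. In reads of a repeated sequence the aligner's treatment decides where they count, and the sources used here do not state it. Of the 31-base words in the gene, 45.2% occurred once in the genome at med-1 and the same share at med-2, while in the 1 kb upstream it was 95.4% at both. The window of med-1 was 93.3% single copy and that of med-2 93.5%. The part of repeated sequence in the difference between the genes was not tested. Past the end of the med-2 gene, outside its window, an optimal peak lay 3320 bp from the gene start.

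The genes end-1 and end-3 commit cells to endoderm and are the known direct targets of the MED factors. The gene end-3 lies on V from 14014695 to 14015980 (WBGene00001311) and end-1 on the same chromosome from 13985128 to 13987074 (WBGene00001310). Neither had an optimal peak or a replicate 1 peak in its window. The strongest pooled peak of end-3 lay 2927 bp upstream inside ddx-17, with a signal of 15.1 (rank 14685) and 13.2 in replicate 2. A second lay 1906 bp upstream inside aip-1, with 14.7 (rank 15977) and 14.7 in replicate 2 as well, where it ranked 2584. The only pooled peak of end-1 lay 2451 bp upstream with a signal of 13.3 (rank 21253) and overlapped no peak of either replicate. The pooled signals lie under the all-gene median of 18.3 for the strongest pooled peak. In replicate 2 the all-gene median was 11.3. There the strongest peak of end-3, with 14.7, lay above it, and 19.2% of genes had one at least as high. The strongest replicate 2 peak of end-1, with 9.52, lay under it. The window of end-3 held 6 replicate 2 peaks, or 0.9545 per kb, a density reached by 0.510% of genes. For end-1 the density was 0.288, reached by 51.4%.

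None of these summits fell on the MED sites of these genes. From the 4 sites of end-3 the nearest pooled summit was 1675 to 1828 bp away, and the nearest replicate 2 summit, with a signal of 9.74 (rank 12086), was 501 to 654 bp away. From the 2 sites of end-1 the nearest pooled summit was 2259 to 2316 bp away and the nearest replicate 2 summit 1789 to 1846 bp away. The nearest peaks of replicate 1 were 22138 bp or more from all 6 sites. Of the 31-base words in the 1 kb upstream, 100% were single copy at end-1 and 99.1% at end-3. For comparison, tbx-35, the T-box gene of the MS lineage and another known MED target, had 5 MED sites upstream, and a pooled summit with a signal of 28.4 (rank 1095) lay 8 bp from one of them. That peak overlapped one of replicate 2 with a signal of 16.8 (rank 1476) and none of replicate 1.

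Across all genes, the shares with a peak in the 1 kb upstream differed in direction with the number of MED sites there and with the list. Of the 19192 genes with no site, 1.66% had an optimal peak in that 1 kb, 5.14% a replicate 1 peak, 34.5% a pooled peak and 33.6% a replicate 2 peak. Of the 790 genes with at least 1 site, the shares were 1.27%, 3.54%, 32.7% and 34.8%. Of the 117 genes with at least 2 sites, 0 had an optimal peak, 2 (1.71%) a replicate 1 peak, 35 (29.9%) a pooled peak and 37 (31.6%) a replicate 2 peak. Of the 7 genes with at least 4 sites, 0 had an optimal or a replicate 1 peak, 4 (57.1%) had a pooled peak and 2 (28.6%) a replicate 2 peak. These shares were not tested against each other. Around summits, 0.652% of the 460 optimal peaks and 0.720% of the 30000 pooled peaks had a MED site within 100 bp.

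**Figure D4:**
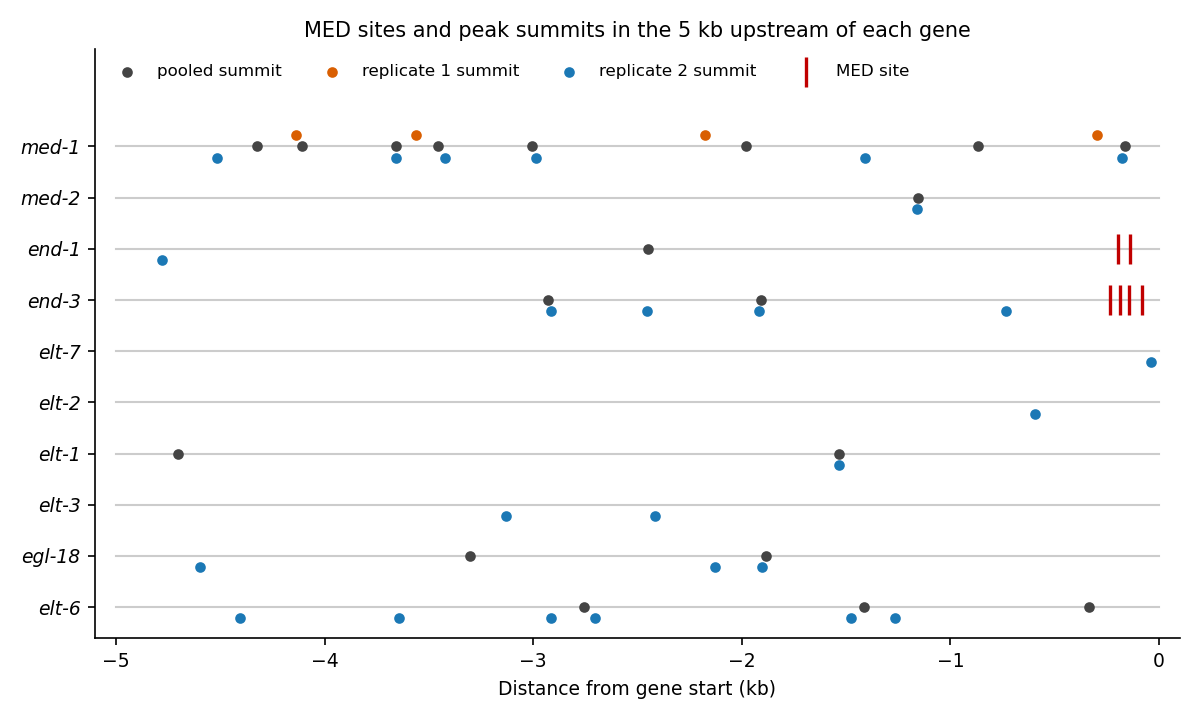
MED sites and peak summits in the 5 kb upstream of each of the 10 genes. The horizontal axis gives the distance from the gene start in kb, red strokes are MED sites, and points are summits of the pooled list (dark), replicate 1 (orange) and replicate 2 (blue). The 6 red strokes stand within 234 bp of the starts of end-1 and end-3, and the closest blue point on these rows lies 732 bp upstream of end-3.

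The genes elt-7 and elt-2 encode the GATA factors that drive and maintain intestinal differentiation. The gene elt-7, on V from 4770670 to 4773086 (WBGene00015981), had no pooled peak and no replicate 1 peak, and 1 weak replicate 2 peak with a signal of 8.80 (rank 16148) 37 bp upstream. The gene elt-2, on X from 10481240 to 10483441 (WBGene00001250), had 2 pooled peaks inside the gene, in an exon 101 bp from its start with a signal of 13.2 and in an intron at 719 bp with 13.2. In replicate 2 the peaks at these places had 6.74 and 7.98. All of these signals lie under the median of their lists, which is 14.97 for the pooled list and 9.05 for replicate 2. In the window of elt-7, 88.3% of the 31-base words were single copy, against 100% for elt-2. The nearest replicate 1 summit was 5088 bp from the start of elt-7 and 45377 bp from that of elt-2.

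In the epidermal group, egl-18 encodes a factor of the seam cells and stood apart. It lies on IV from 1902322 to 1917840 (WBGene00001186), and its window of 20.5 kb is the longest of the 10. Its optimal peak spanned 1908670 to 1908993 with the summit at 1908832, in an intron 6510 bp from the gene start and 130 bp from the non-coding RNA gene F55A8.4. The pooled signal of 40.9 ranked 425 of 460, and 4.04% of all genes had a strongest peak at least as high. Replicate 1 gave 16.5 (rank 887) and replicate 2 gave 20.4 (rank 714), with summits 39 and 4 bp from the pooled one. A further intronic pooled peak, at 9622 bp, had 24.1 (rank 2140) and was matched at 16.2 in replicate 1 and 11.96 in replicate 2.

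A pair of other pooled peaks of egl-18, ranked 1550 and 1815, was found in replicate 2 alone of the replicates. The first lay 8881 bp into the gene, with a pooled signal of 26.1 and 11.5 in replicate 2. The second lay 1885 bp upstream, with a pooled signal of 25.2. It overlapped replicate 2 peaks with summits 1901 bp upstream (signal 11.1) and 2130 bp upstream (signal 16.5). The window held 11 pooled, 2 replicate 1 and 15 replicate 2 peaks in all. As many pooled peaks were found at 0.856% of all genes and as many replicate 2 peaks at 0.260%, but the window length enters these counts. Per kb the pooled density of 0.536 was reached by 13.0% of genes, and the replicate 2 density of 0.731 by 3.31%. Among the 800 genes with windows of 15 to 25 kb, 6.5% had an optimal peak, 32.6% had a replicate 1 peak and the median number of pooled peaks was 5.

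**Figure D5:**
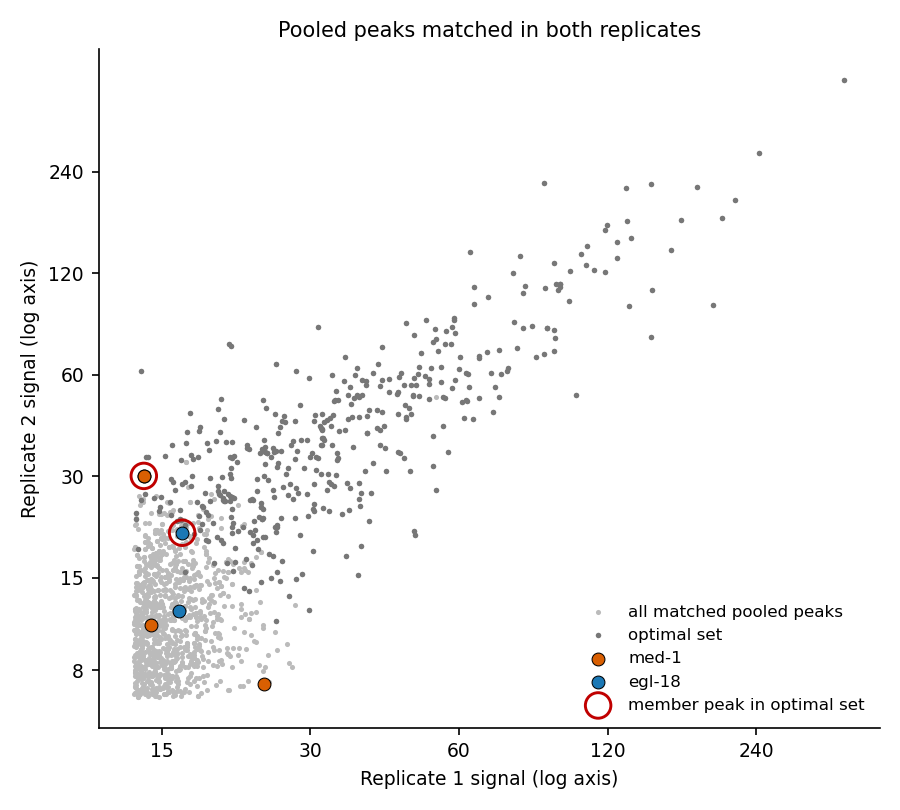
Signal of replicate 1 (horizontal log axis) and replicate 2 (vertical log axis) for pooled peaks that overlap a peak in both replicates. Light grey points are all such peaks, dark grey points the optimal set, and coloured points those of med-1 (orange) and egl-18 (blue), with red circles for the optimal ones. The circled points lie at 13.8 and 30.1 for med-1 and at 16.5 and 20.4 for egl-18, at the lower edge of the optimal set, and the circled med-1 point also stands for the second pooled peak that shares those replicate peaks.

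The replicates ordered the optimal peaks of med-1 and egl-18 in opposite ways. In replicate 1 the egl-18 peak was stronger than the med-1 peak (16.5 against 13.8) and in replicate 2 the med-1 peak was stronger (30.1 against 20.4). With 2 replicates, the difference between these peaks was not tested. By the strongest peak in the window, med-1 was ahead in both replicates, with 24.2 against 16.5 and 30.1 against 20.4. Of the 29 distinct pooled peaks in the windows of the 10 genes, 8 (27.6%) overlapped a replicate 1 peak, 20 (69.0%) a replicate 2 peak and 6 (20.7%) both. The same shares over all 30000 pooled peaks were 7.98%, 63.1% and 5.03%. All 6 doubly matched peaks lay at med-1 and egl-18. These counts do not require that the peaks of the replicates overlap each other, which they did not at the med-1 peak 4324 bp upstream. They also count both med-1 pooled peaks that share the same replicate peaks.

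The gene elt-6, the neighbour and close relative of egl-18, lies on IV from 1917977 to 1921643 (WBGene00001253), and their coding sequences were 65.1% identical over the aligned bases. Their windows overlap, and 3 of the 4 pooled peaks of elt-6, with signals of 17.7, 18.5 and 19.7, are also counted for egl-18. Its strongest, in an intron 2066 bp from its start, had a signal of 20.02 (rank 5071) and 9.07 in replicate 2, and 33.1% of all genes had one at least as high. Replicate 2 had 9 peaks in the window, or 1.04 per kb, a density reached by 0.245% of genes, and replicate 1 had none. Of the 9, 6 lie upstream of elt-6 inside egl-18 and are also counted for egl-18.

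The gene elt-1, which specifies epidermal fate, lies on IV from 9614995 to 9620280 (WBGene00001249). It had 3 pooled peaks, with signals of 15.9 at 4701 bp upstream, 12.3 at 1535 bp upstream and 12.3 in an exon near the gene end. Of these only the middle one, with 10.3, was found in replicate 2, and none was found in replicate 1. The gene elt-3, which acts in the differentiating epidermis, lies on X from 13934874 to 13941216 (WBGene00001251). It had no pooled peak and 3 replicate 2 peaks with signals from 7.42 to 9.29. The nearest replicate 1 summit lay 69625 bp from the start of elt-1 and 8176 bp from that of elt-3.

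The sequences at the 2 optimal peaks are shown, 100 bp on each side of the summit, because GATA factors as a family are known for the GATA site and none was found there. The search took AGATAA, its variant AGATAG, the further variant TGATAA and the last variant TGATAG, on both strands. No capitals appear because neither a GATA site nor a MED site was found in either. They are X:12426849-12427049 for med-1 and IV:1908732-1908932 for egl-18, plus strand of WBcel235.

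med-1 optimal peak: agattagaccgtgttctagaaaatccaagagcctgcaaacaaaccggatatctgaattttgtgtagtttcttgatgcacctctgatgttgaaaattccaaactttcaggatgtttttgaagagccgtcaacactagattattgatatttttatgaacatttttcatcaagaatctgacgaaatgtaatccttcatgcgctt

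egl-18 optimal peak: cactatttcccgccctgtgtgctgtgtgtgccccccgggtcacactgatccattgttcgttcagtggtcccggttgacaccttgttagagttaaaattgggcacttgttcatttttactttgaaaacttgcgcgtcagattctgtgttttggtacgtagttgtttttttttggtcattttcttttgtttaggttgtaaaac

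Of the 29 distinct pooled peaks of the members, 12 (41.4%) had a GATA site within 100 bp of the summit, against 34.3% of all pooled peaks and 22.0% of optimal peaks. The longer CTGATAA, which contains the GATA site TGATAA, was found at 3 of 29 (10.3%), against 3.43% of all pooled peaks and 2.17% of optimal ones. Those 3 were the med-1 peak 163 bp upstream, the egl-18 peak at 8881 bp and the peak 12897 bp into egl-18 that is shared with elt-6. No member peak had a MED site or its core within 100 bp, against 0.720% and 2.21% of all pooled peaks. In the 1 kb upstream of the genes, GATA sites numbered from 2 at egl-18 to 7 at elt-2, with a median of 2 over all genes and at least 1 at 89.9% of them. The count of 7 at elt-2 was reached by 3.08% of genes, and over 5 kb elt-2 held 24, reached by 1.43%. A match of letters is a description of the sequence and not a bound site.

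Genes that work with the members were counted in the same way, beside the 4.44% of all genes with an optimal peak and the 18.1% with a replicate 1 peak. Of 3 other GATA-type genes, 1 had an optimal peak and 1 a replicate 1 peak. The optimal peak was that of egl-27, which encodes a chromatin regulator, with a signal of 46.1 (rank 360) 579 bp into the gene, 31.6 in replicate 2 and no overlapping peak in replicate 1. The intestinal gene elt-4 had 1 pooled peak with a signal of 11.6 (rank 29645). Of 14 genes upstream of and beside the cascade, such as skn-1, the Wnt genes and tbx-35, 1 had an optimal peak and 4 had a peak in replicate 1. The one was src-1, a Src kinase gene, with 58.2 (rank 274), matched at 19.3 and 38.2 in the replicates.

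Of 14 genes of the differentiated intestine 0 had an optimal peak (4.44% of all genes) and 3 a replicate 1 peak (18.1% of all genes). Their strongest pooled peak was upstream of pho-1, an acid phosphatase gene, with a signal of 28.3 (rank 1112), 13.4 in replicate 1 and 17.6 in replicate 2. Of 16 epidermis genes 1 had an optimal peak and 6 a replicate 1 peak, beside the same shares of all genes. The one was ajm-1, a gene of the apical junction, with 42.5 (rank 404), 16.5 in replicate 1 and 28.5 in replicate 2. The median strongest pooled signal was 23.3 for the pathway genes, 16.2 for the intestine genes and 19.5 for the epidermis genes, beside 18.3 for all genes. Their median windows were 9.89, 7.17 and 9.56 kb in that order, against 7.03 kb for all genes. For the other GATA-type genes it was 12.8 kb. The part of window length in these signals and in the shares with a peak was not tested.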

How the data were processed

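Anti-GFP ChIP-seq peaks of 2 biological replicates (1 group) were analysed. Per the deposited file lists, the authors made a list for each replicate against a control, a pooled list of both replicates against a control, and from all 3 the optimal IDR set. Aligner, peak caller and IDR threshold: not given in the sources used here. Each peak's deposited signal (never negative, scale not stated) and the deposited score of the q-value column, which falls below 0 in lists with background, are the authors' values. The score was used as an alternative threshold. The deposited summit offset set each peak's position. The 4 lists on ce11 were used, and lists on ce10 were not analysed here. Gene windows came from Ensembl release 115 and sequence from RefSeq WBcel235. Peaks were matched by an overlap of at least 1 bp, and the strongest overlapping peak of a replicate was taken as the match. Intervals are exact 95% binomial and cover counting error over genes only. Peak counting and motif search were tested on simulated data. Python 3.11.15, pandas 2.3.3, SciPy 1.17.1 and Biopython 1.88 were used. The members and gene lists were chosen with earlier results of these data known. The genes named are the 10 members, and of the other lists those with an optimal peak, elt-4, tbx-35 and the gene with the strongest pooled peak. Named member peaks are those in the optimal set, in the top 1000 of the pooled list or of replicate 2, or in replicate 1, and otherwise the strongest pooled peak. Further peaks were described where the windows were counted and were chosen after their values were seen. Windows of 2 and 10 kb, the upstream 5 kb alone, stricter peak sets, other overlap rules and single replicates were tried. A planned comparison of zinc finger sequences was not run.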

Additional observations from a re-analysis of the deposited data

How the results depend on the processing

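The count of 2 members with an optimal peak fell to 1 with a window from 2 kb upstream and with the 5 kb upstream alone, and to 0 with the 230 strongest optimal peaks or with optimal peaks of score 2 or more. It was 1 to 1 with the 460 strongest peaks of either replicate alone, and med-1 was that gene in both, through different peaks. In replicate 1 the peak lay 4137 bp upstream (rank 315), and the one that overlaps the optimal peak ranked 1952. In replicate 2 it lay 3656 bp upstream (rank 304), at the optimal peak. Omitting med-1 or egl-18 was tried only after seeing the data. Without med-1 the count of members with an optimal peak was 1, and the count of members matched in both replicates was 1. The endoderm count of 1 became 0 with the 2 kb window, with the 230 strongest, with score 2 or more and without med-1. The epidermal count of 1 became 2 with the 10 kb window, since elt-6 then took in the egl-18 peak. It became 0 with the 5 kb upstream alone, with the 230 strongest, with score 2 or more, and 0 to 0 with single replicates. The share of all genes with an optimal peak, 4.44%, was 2.23% with the 230 strongest and 1.97% with score 2 or more. The members in the top 1000 fell from 2 to 1 with the 2 kb window and with the 5 kb upstream alone, and the doubly matched members fell to 1 with the latter. In place of pooled peaks, those of replicate 1, whose list is short, gave 0.103 (endoderm) and 0.0435 (epidermal) per kb. The same list gave 0.0245 over the windows of all genes. Peaks of replicate 2 gave 0.488 and 0.479, against 0.305 over all genes. The endoderm density of pooled peaks was 0.180 without med-1. The other 32 values, some of them given above, stayed within 1.5 times those reported. They include 3 members with the 10 kb window in place of 2 (optimal, top 1000 and doubly matched), a share of all genes of 2.97% with the 2 kb and 6.47% with the 10 kb window, and an epidermal density of 0.231 without egl-18. That last density still counts peaks inside egl-18 that fall in the window of elt-6. No paired analysis was possible because there is 1 group. The optimal peaks of both genes are thus weak members of the set, and unknown read depth limits what a missing peak shows.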

Other observations

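The deposited score does not fall steadily along the pooled list. It first drops below 0 at rank 504, where the signal is 37.3, is lowest at rank 2060 with -0.387 and is -0.0499 at the last rank, 30000. All member peaks outside the optimal set have a negative pooled score. Since the score is lowest at rank 2060 and higher again at the last rank, it does not follow the signal among these peaks. In replicate 1 the med-1 peak 4137 bp upstream has a score of 1.401, above the 0.0423 of the peak that overlaps the optimal one.

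Around med-2 there were 20 pooled, 2 replicate 1 and 19 replicate 2 peaks within 20 kb, against 40, 15 and 39 around med-1. Of the other members, elt-3 had the fewest pooled peaks within 20 kb, 5, with 17 in replicate 2.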
